A study of Mus musculus with 23 samples.

Results

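The cultures examined were 7 libraries of mouse lung epithelium cultured to day 4 in the presence of NTHi (non-typeable Haemophilus influenzae, which colonises the airways), set against 6 libraries of the same kind of culture on the day of airlift. They are 13 of the 23 libraries of the series and were chosen by their labels alone. The cells were EpCAM-positive cells of wild-type C57BL/6 mouse lung, grown on transwell filters. At airlift the medium above the cells is removed, so that the upper face meets air while the lower face is fed. The airlift libraries were untreated and came before any contact with the bacterium. Experiments A and B each gave 2 airlift and 2 NTHi-treated libraries, and experiment C gave 2 and 3. A further 7 untreated libraries of day 4 (2, 2 and 3 per experiment) gave the change over the same interval without NTHi, and 3 libraries of freshly isolated cells, 1 per experiment, gave the starting level. The day 4 groups differed in the NTHi treatment only as far as the labels state, and neither the dose nor the form of the bacterium is given in the sources used here. Nothing in the labels says that libraries of a group within an experiment came from separate mice or cultures, and the p-values below reflect only how much these samples vary, which may be technical variation.

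Lung epithelium put into such a culture is first covered by medium and then, after airlift, begins to specialise. Multiciliated cells arise through a programme in which Mcidas and related factors start the multiplication of centrioles and Foxj1 then switches on the genes of motile cilia. Secretory cells make secretoglobins and gel-forming mucins, basal cells act as the stem cells of the larger airways, and in the alveoli type 2 cells make surfactant and can give rise to the flat type 1 cells of the gas exchange surface. Epithelial cells also sense bacteria, mainly through Toll-like and cytokine receptors that act on the transcription factor NF-kB. The question of the comparison was which of the changes that follow airlift still took place in the presence of NTHi. The labels do not say whether day 4 is counted from airlift, so the length of the interval between the groups is not known here.

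Levels are given as CPM, read counts scaled to a common library total after correction by TMM factors, as the lowest, median and highest library of a group. A log2 change of 1 is a doubling, and the value after ± is its standard error. Genes were tested with edgeR's quasi-likelihood test, with experiment as a term, and were called at a Benjamini-Hochberg adjusted p below 0.05 over all genes tested. The words rose and fell are kept for called genes, and unless another comparison is named they refer to day 4 with NTHi against airlift. The change with NTHi and the change without it share the 6 airlift libraries, so their values are given side by side. Whether they differ was tested by comparing the NTHi-treated with the untreated libraries of day 4 directly. RNA came from whole cultures, and fewer cells of a type and less RNA per cell cannot be told apart.

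The 13 libraries held 32323375 to 38612050 counts. Of 16635 genes tested, 4937 (29.7%) were higher and 5173 (31.1%) lower with NTHi than at airlift, and 1238 and 1424 of these had changed at least by a log2 value of 1. The median log2 change of all genes tested was -0.021. Untreated cultures over the same interval had 4918 genes higher (29.4%) and 4682 lower (28.0%) of 16719 tested, and the direct comparison of the day 4 groups had 3281 higher (20.1%) and 3338 lower (20.4%) with NTHi of 16337 tested. With libraries scaled by their totals alone, that direct comparison gave 2282 higher and 4416 lower, and the comparison with airlift 4091 and 6178. The third NTHi library of experiment C correlated least with its group (median r of 0.9821 over genes, with 0.9912 to 0.9941 in the other NTHi libraries), and without it 4920 genes were higher and 5156 lower than at airlift.

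**Figure D1:**
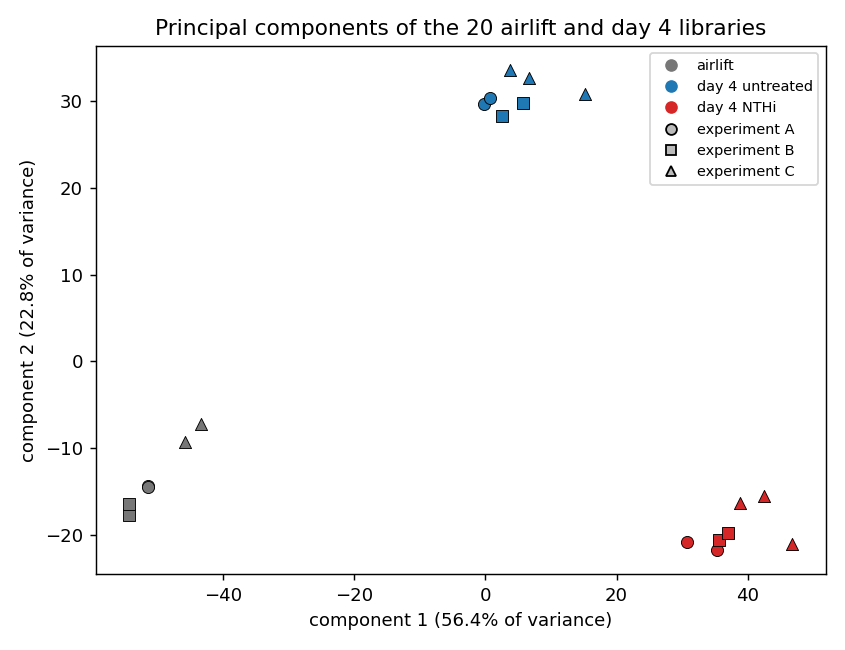
Principal components of the 20 airlift and day 4 libraries from log2 CPM, component 1 on the horizontal and component 2 on the vertical axis, with colour for the group and shape for the experiment. Component 1 (56.4% of the variance) ran from airlift through untreated to NTHi-treated cultures, and component 2 (22.8%) set the untreated libraries, between 28.36 and 33.62, apart from airlift and NTHi-treated libraries, all of which lay below 0.

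The gene lists below gather genes by cell type or pathway, and their counts are read against the shares of all genes given above, near 30% in each direction. The panel of changed list members shows both intervals side by side. For the multiciliated programme, basal cells, matrix adhesion, proliferation, sterol synthesis and antioxidant defence, most called members moved in one direction with and without NTHi. The more frequent direction was opposite with and without NTHi for alveolar type 1 cells and NF-kB. It was also opposite for the next lists, where counts on at least 1 side were small or nearly equal. In rises and falls with NTHi against without, the Krt8-high state had 10 and 8 against 7 and 8. Epithelial identity had 6 and 4 against 4 and 6, and MHC class I 6 and 3 against 0 and 13. MHC class II had 2 and 6 against 4 and 3. Nuclear respiratory chain subunits had 2 and 9 against 6 and 1, and lymphocytes 0 and 7 against 2 and 1.

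**Figure D2:**
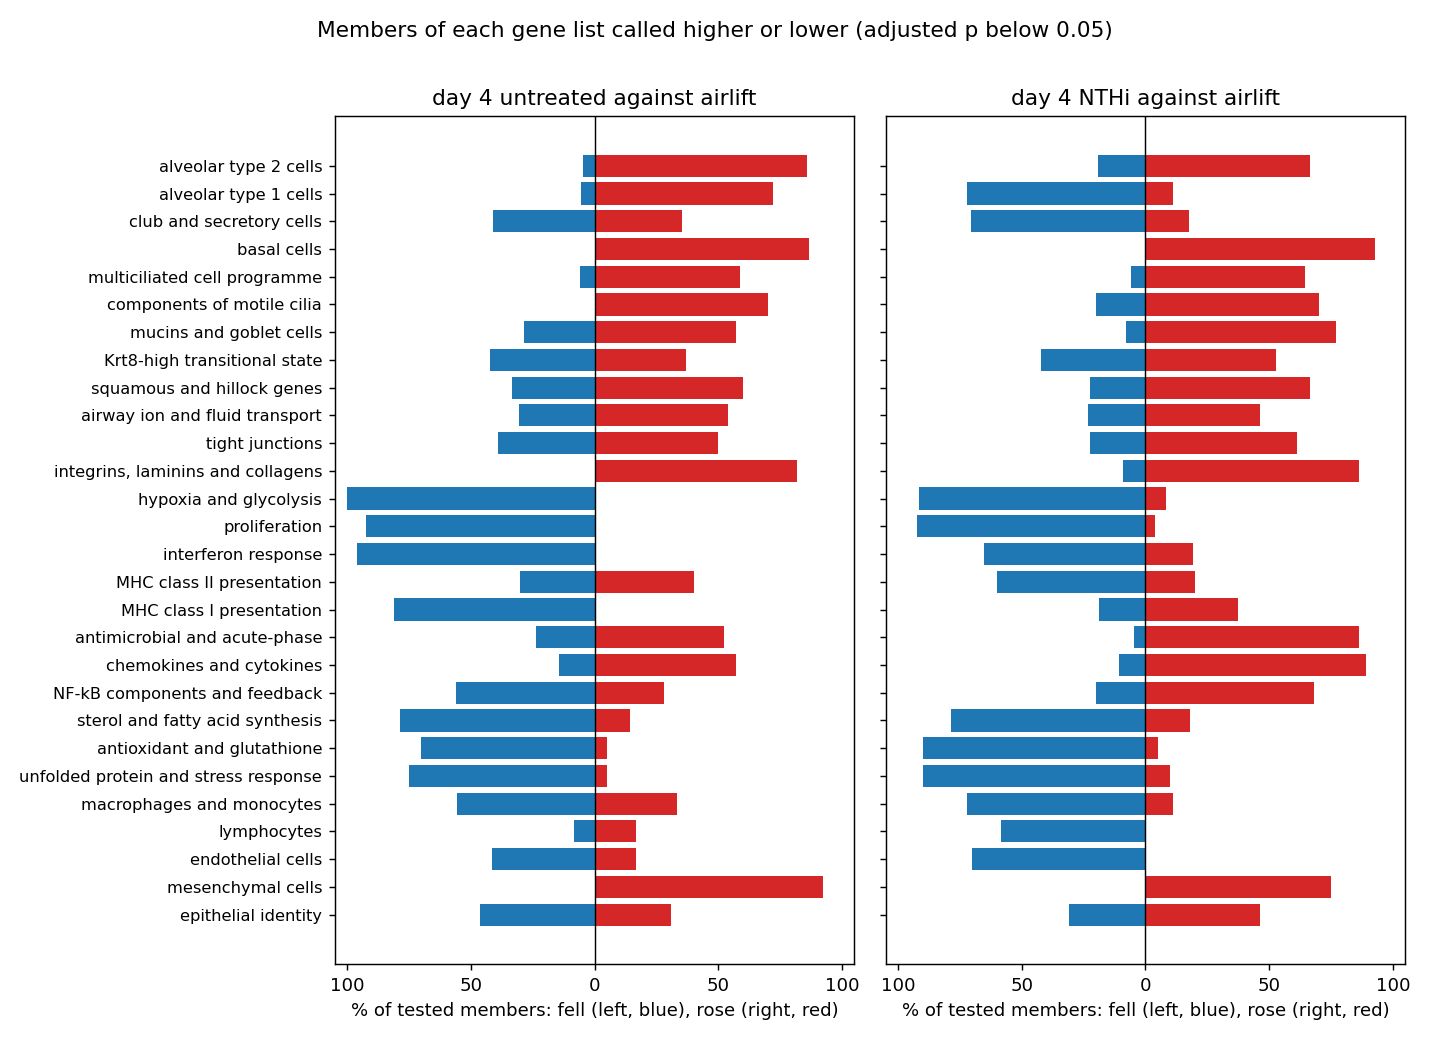
Share of tested members of 28 gene lists called higher (red, right) or lower (blue, left), on day 4 against airlift, for untreated cultures (left panel) and cultures with NTHi (right panel). The bars of alveolar type 1 cells change side, from 13 of 18 members higher to 13 of 18 lower, while those of the multiciliated programme are 10 and 11 of 17 higher.

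Genes that start multiciliated cells rose after airlift both with NTHi and without it, and no difference between the day 4 groups was called. Of 17 genes of this programme, 11 rose and 1 fell with NTHi (median log2 change 0.87), and 10 rose and 1 fell without it (median 0.90). In the direct comparison of the day 4 groups by edgeR the 17 had a median difference of 0.01. Mcidas, a coiled-coil protein that commits cells to the multiciliated fate, was at 0 to 0.817 CPM (median 0.0789) at airlift, 3.09 to 20.4 (median 8.60) in untreated cultures and 6.67 to 15.3 (median 9.73) with NTHi. Each NTHi library lay above each airlift library. The log2 change was 5.65 ± 0.37 with NTHi (adjusted p = 4.4e-09) and 5.59 ± 0.37 without it, and the difference between the day 4 groups was 0.13 ± 0.19 with a 95% interval of -0.28 to 0.54. Ccno, a cyclin-like protein needed for the multiplication of centrioles, went from 0.949 to 2.82 CPM (median 1.25) at airlift to 19.0 to 35 (median 23.8) with NTHi. Its log2 change was 4.01 ± 0.18 with NTHi and 4.12 ± 0.24 without, again with no overlap of NTHi and airlift libraries. Deup1, which builds the deuterosomes that carry new centrioles, rose by 3.61 ± 0.18 (3.38 ± 0.27 without NTHi), and Foxn4, a transcription factor of the same pathway, by 2.96 ± 0.21 (2.89 ± 0.30 without). Rfx2, a factor of ciliary genes, was the member that fell, by 0.74 ± 0.07 with NTHi and by 0.62 ± 0.07 without.

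Foxj1, the switch for motile cilia genes, was at 34.0 to 90.7 CPM (median 51.4) at airlift and 85.1 to 215 (median 129) with NTHi. The groups overlapped, with both airlift libraries of experiment C high, and within each experiment every NTHi library exceeded every airlift library. The log2 change was 1.22 ± 0.11 with NTHi (adjusted p = 1.4e-07) and 1.22 ± 0.12 without, with a day 4 difference of 0.01 ± 0.08 and a 95% interval of -0.17 to 0.18. Components of the cilium itself moved less. Of 20, 14 rose and 4 fell with NTHi (median 0.31), and 14 rose and none fell without it (median 0.44). Without an experiment term, or without the libraries of experiment C, 7 rose with NTHi. Drc1, a part of the dynein regulatory complex, rose by 0.54 ± 0.08, Cfap126 by 0.48 ± 0.08 and the dynein heavy chain Dnah6 by 0.48 ± 0.08, and without NTHi their values were 0.23 ± 0.10 (not called), 0.48 ± 0.09 and 0.64 ± 0.11. The 4 that fell were the dynein heavy chains Dnah11 (-0.49 ± 0.09) and Dnah9 (-0.28 ± 0.11), Cfap43 (-0.39 ± 0.07) and Hydin (-0.38 ± 0.09), and none of these was called without NTHi, where they lay between -0.14 and -0.06. The call of Dnah9 was lost when any of 8 single libraries, experiment A or experiment B was left out, with no experiment term and with counts summed per experiment.

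Basal cell genes rose in both, but several reached a lower level with NTHi. The summed level of the list was not lower, at 733 to 1155 CPM (median 957) with NTHi and 633 to 1312 (median 909) untreated. At airlift it was 360.2 to 556 CPM. Of 14 tested, 13 rose and none fell with NTHi (median 1.64), and 13 of 15 rose without it (median 2.25), while the direct comparison had 9 of 15 lower and 3 higher with NTHi. Trp63, the master regulator of basal cells, was at 0.527 to 2.23 CPM (median 1.19) at airlift, 4.37 to 15.3 (median 9.17) untreated and 3.31 to 10 (median 6.55) with NTHi. Each NTHi library exceeded each airlift library, with a log2 change of 2.14 ± 0.23 (adjusted p = 1.2e-06) against 2.73 ± 0.26 without NTHi. The day 4 difference for Trp63 was -0.59 ± 0.14 (adjusted p = 0.0036), a call that was lost with no experiment term. Krt5, the keratin that marks basal cells, was at 2.53 to 18.1 CPM (median 11.1) at airlift, 39.8 to 169 (median 106) untreated and 16.0 to 53.3 (median 34.2) with NTHi. Its libraries overlapped between NTHi and airlift, with experiment B lowest at airlift. Krt5 rose by 1.72 ± 0.38 with NTHi and by 3.32 ± 0.41 without, and the day 4 difference of -1.63 ± 0.14 was called (adjusted p = 2.8e-07). Col17a1, a collagen of hemidesmosomes that anchor basal cells, rose by 3.22 ± 0.24 and the basal keratin Krt14 by 3.36 ± 0.34, with 3.75 ± 0.29 and 3.78 ± 0.34 without NTHi. The member not called was Krt15, at 0.34 ± 0.27 with NTHi and 1.25 ± 0.29 without.

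The changes of Krt5, Krt15 and Krt17 differed between experiments, and that of Krt14 was not called (adjusted p = 0.07). The interaction of experiment and group was called for 359 of 16635 genes, and 3298 had an unadjusted p below 0.05. This count ranged from 87 to 1040 when single libraries were left out, with 1040 reached without the third NTHi library of experiment C and 87 without either airlift library of that experiment. It was 121 and 129 without the first or second airlift library of experiment A, 127 without the second airlift library of B, 107 and 114 without the first or second NTHi library of B, and 544 and 152 without the first or second NTHi library of C. Krt5 changed by 0.52 in experiment A, 3.64 in B and 1.29 in C on the log2(CPM + 0.5) scale (adjusted p of the interaction 7.9e-04), Krt17 by 0.94, 3.25 and 2.08 (0.001), and Krt15 by -0.76, 1.70 and 0.21 (1.7e-04). For each of these keratins experiment B had the largest value. Col17a1 had the same order, at 2.40, 3.91 and 2.62 (0.031). Without experiment A, Krt15 was called at 0.85.

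**Figure D3:**
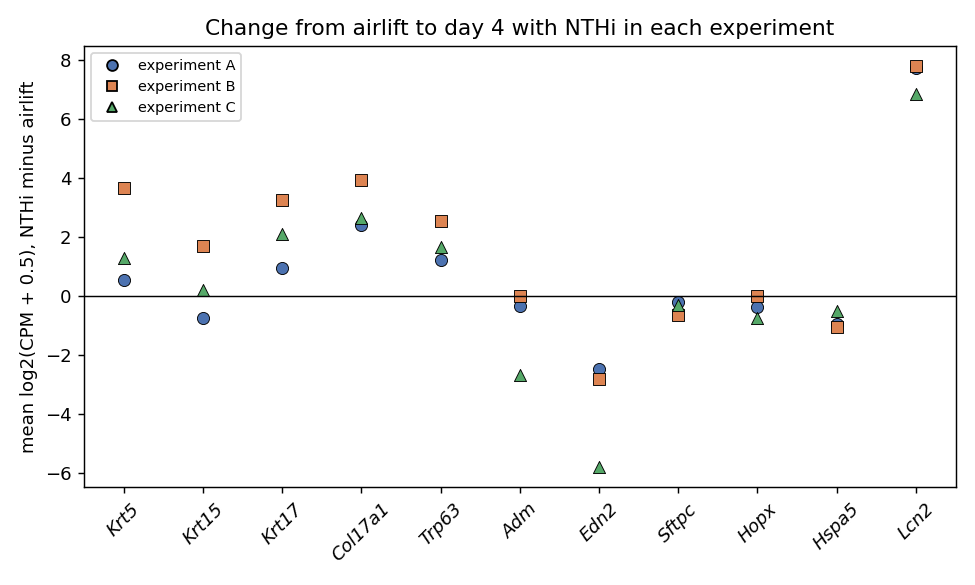
Mean log2(CPM + 0.5) with NTHi minus that at airlift, for 11 genes on the horizontal axis, with 1 point per experiment. Krt5, Krt15 and Krt17 were highest in experiment B, and Adm and Edn2 were lowest in experiment C.

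Surfactant and other genes of alveolar type 2 cells split under NTHi. Of 21, 14 rose and 4 fell with NTHi (median 1.03), and 18 rose and 1 fell without it (median 1.52). In the direct comparison 10 were higher and 10 lower with NTHi. Slc34a2, the phosphate transporter of type 2 cells, was at 10.2 to 16.6 CPM (median 10.5) at airlift, 171 to 211 (median 191) untreated and 305 to 456 (median 346) with NTHi. The 3 groups did not overlap. Its log2 change was 4.92 ± 0.06 with NTHi (adjusted p = 5.3e-17) and 3.96 ± 0.09 without, so that the NTHi-treated cultures lay higher by 0.98 ± 0.07. Sftpd, an antimicrobial collectin of surfactant, rose by 2.22 ± 0.06 with NTHi and 1.12 ± 0.06 without. Chi3l1, a chitinase-like protein shared with the antimicrobial list, rose by 6.43 ± 0.08 against 1.96 ± 0.10, and Dram1, a lysosomal membrane protein, by 2.38 ± 0.06 against 1.63 ± 0.06.

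Genes of the hydrophobic surfactant proteins were lower with NTHi than at airlift. Sftpc had stood at 51918 to 71092 CPM in freshly isolated cells and was at 489 to 643 (median 584) at airlift, 1881 to 2561 (median 2108) in untreated cultures and 389.7 to 524 (median 404) with NTHi. Untreated libraries were above each other library of culture, and NTHi and airlift libraries overlapped. The log2 change of Sftpc was -0.41 ± 0.07 with NTHi (adjusted p = 9.1e-05) and 1.92 ± 0.09 without, and the day 4 groups differed by -2.33 ± 0.08. Sftpb, which organises the surfactant film, went from 202 to 298 CPM (median 251) at airlift to 47.3 to 80.1 (median 66.2) with NTHi and 488 to 654 (median 570.1) without. It fell by 1.97 ± 0.12 with NTHi and rose by 1.17 ± 0.07 without, and no library of one group reached another group. Etv5, a transcription factor that maintains type 2 cells, changed by -0.22 ± 0.08 with NTHi against 1.04 ± 0.06 without. That fall of Etv5 lost its call without experiment B or C, without any of 3 single libraries, and with counts summed per experiment. The fatty acid synthase Fasn fell in both, by 0.46 ± 0.09 and 0.21 ± 0.08.

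Most alveolar type 1 genes fell with NTHi and rose without it. Of 18, 13 fell and 2 rose with NTHi (median -0.43), and 13 rose and 1 fell without it (median 0.50). Against the untreated libraries of day 4, 17 of 18 were lower with NTHi and 1 was higher. Ager, the receptor that marks type 1 cells, was at 299 to 473 CPM (median 354) at airlift, 829 to 1094 (median 899) untreated and 251 to 332 (median 296) with NTHi. NTHi libraries overlapped those of airlift and lay below each untreated library. Its log2 change was -0.33 ± 0.09 with NTHi (adjusted p = 0.0033) and 1.32 ± 0.09 without, and without experiment C the former was -0.13 and not called. Hopx, a cofactor of type 1 cells, and the water channel Aqp5 went the same way, at -0.44 ± 0.09 and -0.89 ± 0.07 with NTHi against 0.33 ± 0.10 and 0.79 ± 0.07 without. Hopx changed by -0.39, -0.02 and -0.76 in experiments A, B and C. The membrane protein Emp2 fell by 1.18 ± 0.06 (0.13 ± 0.06 without NTHi, not called), the receptor Gprc5a by 1.0 ± 0.05 (-0.22 ± 0.06 without) and the chloride channel protein Clic5 by 0.92 ± 0.06 (0.19 ± 0.05 without).

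The 2 members that rose were Pdpn and Col4a3. Pdpn, a membrane glycoprotein of type 1 and basal cells, was at 11.4 to 23.1 CPM (median 17.5) at airlift, 56.4 to 89.1 (median 73.5) untreated and 144 to 295 (median 229) with NTHi. All 3 groups were separate, and the log2 change was 3.61 ± 0.17 with NTHi against 2.01 ± 0.10 without. Col4a3, a collagen of the alveolar basement membrane, rose by 0.51 ± 0.11 with NTHi and by 1.63 ± 0.12 without. Leaving out the first airlift library of experiment C brought the number of type 1 genes that rose to 4.

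**Figure D4:**
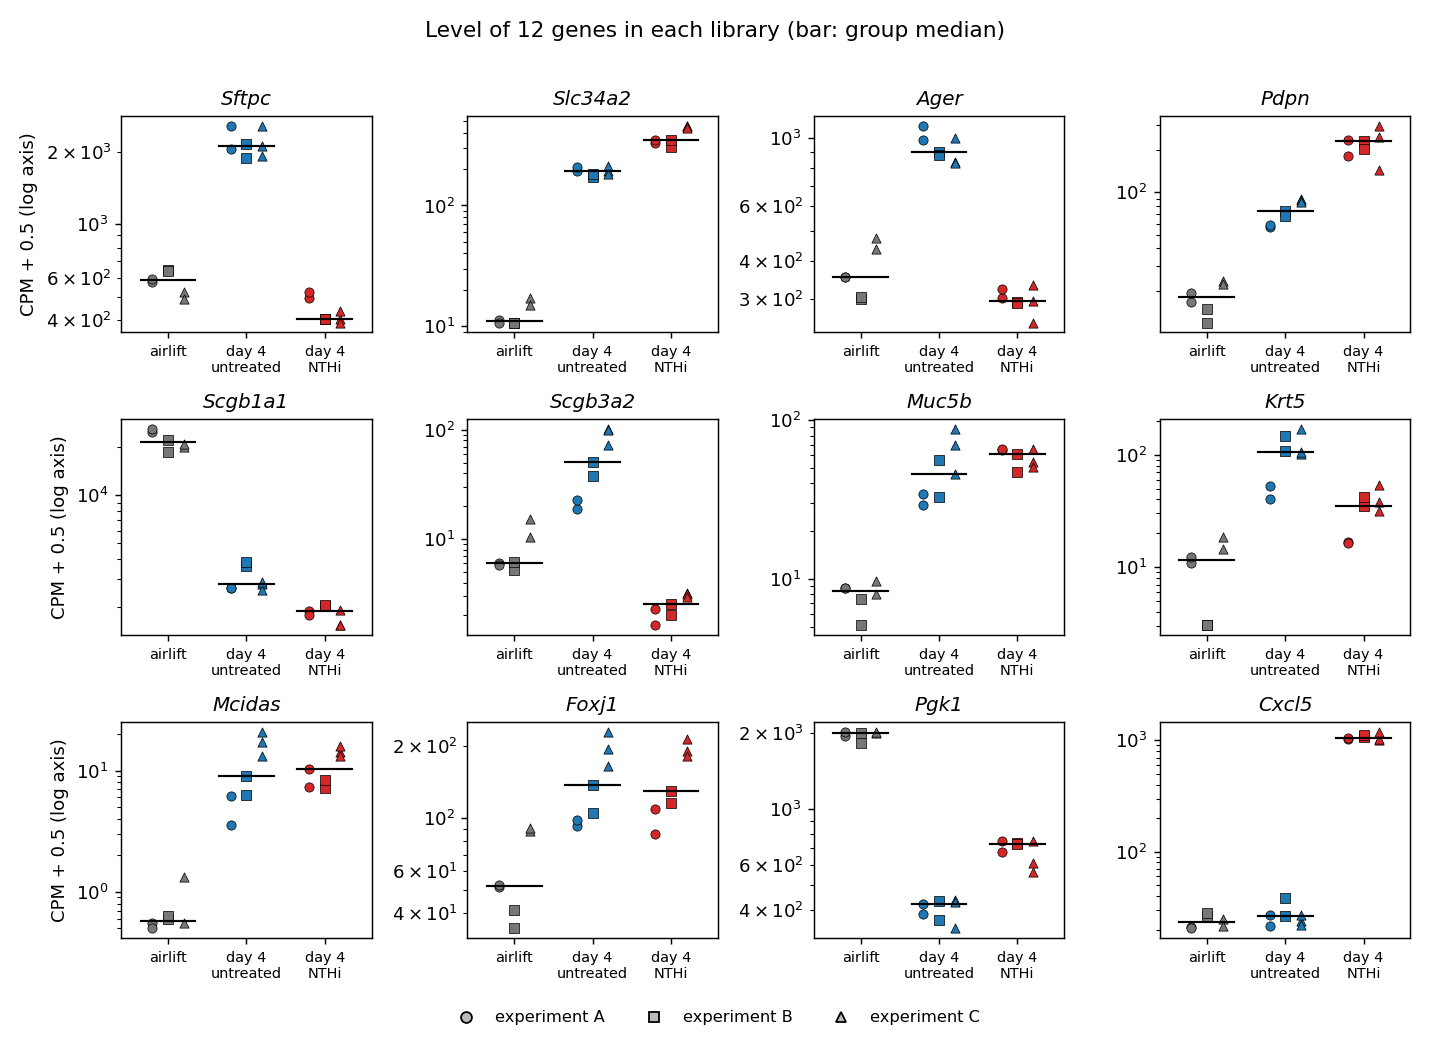
Level of 12 genes (CPM + 0.5, log axis) in each library of airlift, untreated day 4 and NTHi-treated day 4, with 1 point per library, a shape per experiment and a bar at the group median. Mcidas, Foxj1 and Muc5b reach similar medians with and without NTHi, Sftpc and Ager stay near airlift with NTHi, and Cxcl5 rises with NTHi only.

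Secretory cell genes fell further with NTHi. Of 17 genes of club and secretory cells tested, 12 fell and 3 rose (median -1.25), whereas without NTHi 7 fell and 6 rose (median -0.41), and 14 of 17 were lower and 1 higher with NTHi in the direct comparison. Scgb1a1, the main secretoglobin of club cells, went from 18722 to 26032 CPM (median 21510) at airlift to 2542 to 3831 (median 2802) untreated and 1535 to 2063 (median 1890) with NTHi. NTHi libraries were below all others. The log2 change was -3.60 ± 0.09 with NTHi (adjusted p = 9.0e-14) and -2.89 ± 0.10 without. Scgb3a2, a secretoglobin of the small airways, was at 4.72 to 14.6 CPM (median 5.57) at airlift, 18.3 to 101 (median 49.8) untreated and 1.12 to 2.68 (median 2.07) with NTHi. It fell by 1.95 ± 0.15 with NTHi and rose by 2.64 ± 0.18 without, a day 4 difference of -4.67 ± 0.19 with no overlap of groups. Cckar, the cholecystokinin receptor, fell by 1.72 ± 0.07 (0.45 ± 0.11 without NTHi), and Por, the electron donor of cytochromes P450, by 1.25 ± 0.05 (-0.90 ± 0.06 without). The 3 that rose were the haemoglobin-binding Hp (4.47 ± 0.12, and 4.01 ± 0.13 without NTHi), the cytochrome P450 Cyp2f2 (1.21 ± 0.11, and 2.31 ± 0.14 without) and the carbonyl reductase Cbr2 (0.36 ± 0.12, and 1.47 ± 0.12 without). Cbr2 was not called without experiment B or with no experiment term.

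Most genes of the mucin and goblet cell list rose with NTHi, while the intestinal mucin Muc2, which is not on it, fell in both and is given with the largest falls. Of 13 mucin and goblet cell genes tested, 10 rose and 1 fell with NTHi (median 1.24), and 8 of 14 rose and 4 fell without (median 0.53). The direct comparison called 8 of 13 higher and 1 lower with NTHi. Muc5b, the gel-forming mucin of the healthy airway, went from 4.59 to 9.13 CPM (median 7.88) at airlift to 28.9 to 87.6 (median 45) untreated and 46.7 to 65.4 (median 61.1) with NTHi. Each day 4 library exceeded each airlift library, and the log2 change was 2.95 ± 0.11 with NTHi (adjusted p = 1.3e-11) against 2.63 ± 0.21 without, with a day 4 difference of 0.27 ± 0.20 and a 95% interval of -0.16 to 0.7. Muc5ac, the mucin induced in inflamed airways, was at 0.600 to 1.16 CPM (median 0.806), 2.16 to 5.35 (median 3.52) and 6.77 to 9.81 (median 7.55) in the same order. Its groups were separate, with log2 changes of 3.10 ± 0.14 and 2.05 ± 0.20. Creb3l1, a transcription factor of secretory capacity, rose by 2.64 ± 0.11 and the membrane mucin Muc20 by 1.24 ± 0.07 with NTHi, while without it they stood at 0.11 ± 0.10 and 0.00 ± 0.10 and were not called. Fer1l6 was the member that fell, by 2.66 ± 0.35, from a median of 1.03 CPM.

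Slc26a4, the chloride and bicarbonate exchanger pendrin, led the genes of ion and fluid transport, of which 6 of 13 rose and 3 fell with NTHi (median 0.15) and 7 rose and 4 fell without (median 0.26). It was at 0.940 to 1.89 CPM (median 1.14) at airlift, 5.64 to 19.4 (median 8.79) untreated and 144 to 264 (median 222) with NTHi, with no overlap, and changed by 7.43 ± 0.14 against 3.09 ± 0.19. Cftr, the chloride channel mutated in cystic fibrosis, was at 6.31 to 11.6 CPM (median 7.83) at airlift, 6.38 to 7.94 (median 7.47) untreated and 18.2 to 28.9 (median 25.4) with NTHi. Only the NTHi libraries stood apart, and Cftr rose by 1.55 ± 0.14 with NTHi and was at -0.19 ± 0.11 without, not called. The sodium and chloride cotransporter Slc12a2 rose by 1.29 ± 0.08 (0.97 ± 0.08 without), and the sodium channel subunit Scnn1a fell by 0.88 ± 0.07 (-0.31 ± 0.07 without). Among 18 tight junction genes 11 rose and 4 fell with NTHi (median 0.42), and 9 rose and 7 fell without (median 0.13). Tjp3 rose by 1.22 ± 0.08, Cldn4 by 0.74 ± 0.06 and Epcam by 0.65 ± 0.05 with NTHi, whereas without it Tjp3 fell by 0.40 ± 0.09 and Cldn4 and Epcam were at 0.18 ± 0.06 and 0.33 ± 0.06. Occludin (Ocln) fell by 0.44 ± 0.04 with NTHi and by 0.40 ± 0.04 without.

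Genes of epithelial identity remained expressed in both groups: the antigen used for sorting, Epcam, was at 321 to 345 CPM at airlift and 467 to 566 with NTHi. Of 13 such genes 6 rose and 4 fell (median 0.08), and without NTHi 4 rose and 6 fell (median -0.01). The 4 that fell with NTHi were keratins of simple epithelium. Krt8 went from 2251 to 2667 CPM (median 2601) at airlift to 1380 to 1587 (median 1449) with NTHi and 1347 to 1747 (median 1583) without. No NTHi library reached an airlift library, and the log2 change was -0.82 ± 0.05 with NTHi and -0.68 ± 0.06 without. Krt19 fell by 1.27 ± 0.07 and by 1.11 ± 0.07, and Grhl2, a transcription factor of epithelial junctions, rose by 0.50 ± 0.05 and 0.18 ± 0.07. Of the 19 genes of the Krt8-high state that alveolar cells pass through in repair, 10 rose and 8 fell with NTHi (median 0.13), and 7 rose and 8 fell without (median -0.04). The integrin Itgb6 rose by 1.65 ± 0.05 (1.04 ± 0.07 without NTHi), the growth factor Mdk by 3.19 ± 0.11 (2.92 ± 0.12) and the chaperone Clu by 1.33 ± 0.07 (0.84 ± 0.07), and Ndrg1, which hypoxia induces, fell by 1.94 ± 0.08 (-2.80 ± 0.08).

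Of 18 squamous and hillock genes tested, 12 rose and 4 fell with NTHi (median 1.28), and 9 of 15 rose and 5 fell without (median 0.73). The summed level of the list moved the other way with NTHi, from 1495 to 1731 CPM at airlift to 681 to 1252. Untreated cultures were at 813 to 1629 CPM and overlapped airlift. The 4 that fell with NTHi were Krt4, Krt13, Sprr1a and Sprr2f. For Krt4, Krt13 and Sprr1a each NTHi library lay below each airlift library. Ivl, the cornified envelope protein involucrin, rose by 3.02 ± 0.15 with NTHi and by 4.66 ± 0.16 without, from a median of 0.650 CPM to 5.35 and 17.3. Krt4, a keratin of hillock cells, went from 54.6 to 65.5 CPM (median 58.1) at airlift to 4.58 to 25.3 (median 13.5) untreated and 1.09 to 3.17 (median 2.11) with NTHi. Its groups did not overlap, and it fell by 4.81 ± 0.14 with NTHi and 2.34 ± 0.21 without. Sprr2a3 rose by 2.84 ± 0.14 and 1.52 ± 0.15. It and Cstdc4 have near-identical paralogs between which reads can be split, which makes their values uncertain.

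Transcription factors of lung lineages gave 12 rises and 9 falls of 24 with NTHi (median 0.12) and 12 and 10 without (median 0.12), and without experiment B 5 fell with NTHi. Cebpd, a factor of the acute-phase response, rose by 2.47 ± 0.08 against 0.47 ± 0.08 without NTHi, and Spdef, which drives goblet cells, by 1.59 ± 0.10 against 0.76 ± 0.13. The airway factor Ehf rose by 0.95 ± 0.07 with NTHi and fell by 0.28 ± 0.08 without, and Klf5 fell by 0.92 ± 0.07 and 1.04 ± 0.07. Of 13 Notch pathway genes 6 rose and 4 fell with NTHi (median 0.04), and 7 rose and 2 fell without (median 0.48). The ligands Dll4 and Jag1 rose by 1.83 ± 0.11 and 1.14 ± 0.08 with NTHi and by 0.50 ± 0.18 and 0.78 ± 0.09 without. Hes6, which opposes Notch signalling, rose by 0.91 ± 0.06 and 1.10 ± 0.09, and the receptor Notch2 by 0.42 ± 0.04 and 0.09 ± 0.04.

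**Figure D5:**
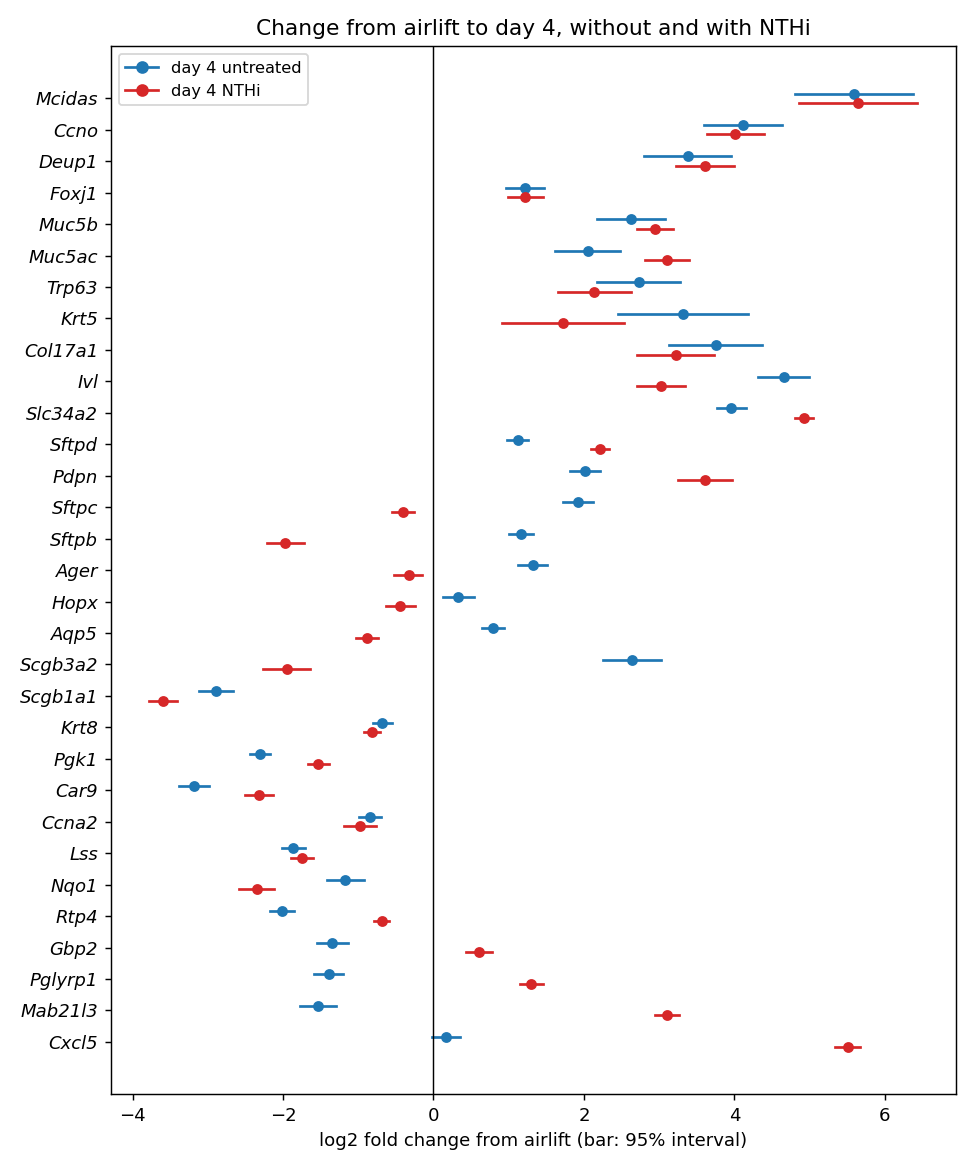
Log2 fold change from airlift to day 4 for 31 genes, with 95% intervals, in untreated (blue) and NTHi-treated (red) cultures. Points lie close together from Mcidas to Foxj1, on opposite sides of 0 for Sftpc, Sftpb, Ager and Scgb3a2, and at 0.16 and 5.51 for Cxcl5.

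The fall of hypoxia and glycolysis genes after airlift still took place with NTHi but was smaller. Of 24 genes 22 fell and 2 rose with NTHi (median -1.16), all 24 fell without it (median -1.70), and in the direct comparison 21 were higher with NTHi and 1 lower. Pgk1, a glycolytic kinase, was at 1817 to 2014 CPM (median 1994) at airlift, 338 to 438 (median 420.3) untreated and 565 to 746 (median 725) with NTHi. The groups were separate, and the log2 change was -1.53 ± 0.06 with NTHi (adjusted p = 3.5e-11) and -2.30 ± 0.06 without. Car9, a carbonic anhydrase that hypoxia induces, went from 17.0 to 28.3 CPM (median 21.5) at airlift to 3.52 to 6.12 (median 4.60) with NTHi and 2.29 to 2.75 (median 2.52) without. It fell by 2.32 ± 0.09 and 3.18 ± 0.09. Ndufa4l2, a mitochondrial protein that hypoxia also induces, fell by 3.24 ± 0.15 (-4.38 ± 0.14 without NTHi), and Pfkp, a phosphofructokinase, by 1.78 ± 0.08 (-2.11 ± 0.07). The 2 that rose were Pfkfb3 and Hk2, enzymes at control points of glycolysis, by 0.69 ± 0.07 and 0.77 ± 0.09, while without NTHi they fell by 0.46 ± 0.05 and 0.27 ± 0.07. Adm, which encodes adrenomedullin, changed by -0.36, -0.02 and -2.69 in experiments A, B and C, and its fall was not called without experiment C (-0.22).

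The transcription factor HIF binds the letters ACGTG or GCGTG. In RefSeq promoter windows of GRCm38.p6 (250 bases before to 50 after a start), 23 of the 24 genes had a window. The letters occurred, on either strand, in 27 of their 31 windows and in 43.8% of all 32851 windows. The longer ACGTGC or ACGTGG, which contains the shorter form, occurred in 15 of the 31 and in 12.7% of all. The window of Car9 (chr4:43506776-43507075, plus strand) is shown because it had the smallest p among members with the longer form, which is in capitals and here reads from the other strand.
Car9: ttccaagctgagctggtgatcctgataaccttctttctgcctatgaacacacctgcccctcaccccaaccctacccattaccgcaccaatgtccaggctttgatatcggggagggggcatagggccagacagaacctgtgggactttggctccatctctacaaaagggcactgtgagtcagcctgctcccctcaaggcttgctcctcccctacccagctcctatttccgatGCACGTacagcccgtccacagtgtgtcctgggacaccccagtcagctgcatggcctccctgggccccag

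Proliferation genes fell in both. Of 26, 24 fell and 1 rose with NTHi (median -0.65), and 24 fell without (median -0.53), and the direct comparison called 6 lower and 2 higher with NTHi. Mki67, a protein of dividing cells, was at 61.3 to 86.0 CPM (median 69.6) at airlift, 50.1 to 61.6 (median 53.9) untreated and 36.7 to 49.2 (median 42.7) with NTHi. NTHi libraries lay below the others, and Mki67 fell by 0.75 ± 0.09 with NTHi and 0.36 ± 0.06 without. The cyclin Ccna2 fell by 0.98 ± 0.10 and 0.84 ± 0.07, the ribonucleotide reductase Rrm1 by 0.60 ± 0.06 and 0.57 ± 0.06, the kinetochore protein Cenpf by 1.01 ± 0.11 and 1.03 ± 0.10, and the checkpoint kinase Bub1 by 0.94 ± 0.10 and 0.85 ± 0.08. Ccne1, the cyclin of entry into S phase, was the member that rose, by 0.60 ± 0.07, and was at 0.10 ± 0.08 without NTHi, not called.

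Most genes of sterol and fatty acid synthesis fell with and without NTHi. Of 28 genes 22 fell and 5 rose with NTHi (median -0.56), and 22 fell and 4 rose without (median -0.74). The direct comparison called 16 higher and 7 lower with NTHi. The summed level of the list moved the other way, from 5259 to 5802 CPM at airlift to 6560 to 7239 with NTHi and 10019 to 12059 without. Scd1, a fatty acid desaturase, held much of that sum, at 1028 to 1532 CPM at airlift (median 1083), 6659 to 8921 untreated (median 7486) and 3180 to 4112 with NTHi (median 3802). Scd1 rose by 1.59 ± 0.09 with NTHi and 2.65 ± 0.10 without, and the sterol regulator Srebf1 rose by 0.60 ± 0.06 and 0.43 ± 0.06. Lss, the lanosterol synthase, was at 64.9 to 95.4 CPM (median 77.2) at airlift, 19.1 to 23.9 (median 20.9) untreated and 21.1 to 25.3 (median 22.8) with NTHi. Day 4 libraries of either kind lay below airlift and overlapped each other, with log2 changes of -1.75 ± 0.07 and -1.87 ± 0.07. Insig1, which holds back the sterol sensor, fell by 1.43 ± 0.06 and 1.46 ± 0.06, and the acetyl-CoA synthetase Acss2 by 2.77 ± 0.08 and 2.23 ± 0.06. Fdps, an enzyme of isoprenoid synthesis, fell by 1.04 ± 0.05 with NTHi and by 1.51 ± 0.04 without.

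Antioxidant genes fell further with NTHi. Of 20, 18 fell and 1 rose with NTHi (median -0.97), 14 fell and 1 rose without (median -0.68), and 14 were lower and 2 higher with NTHi in the direct comparison. Nqo1, a quinone reductase under the control of Nrf2, went from 48.6 to 56.4 CPM (median 54.5) at airlift to 13.7 to 27.4 (median 26.1) untreated and 7.41 to 14.3 (median 11) with NTHi. NTHi and airlift libraries were far apart, and the log2 change was -2.35 ± 0.11 against -1.17 ± 0.11. Srxn1 (sulfiredoxin), the glutathione transferase Gsta4 and the thioredoxin reductase Txnrd1 fell by 1.84 ± 0.08, 1.62 ± 0.07 and 1.09 ± 0.05 with NTHi and by 1.05 ± 0.11, 1.06 ± 0.06 and 0.83 ± 0.08 without. G6pdx, which supplies NADPH, was the member that rose, by 0.34 ± 0.06 with and 0.59 ± 0.07 without NTHi.

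Stress genes of the endoplasmic reticulum fell in both as well, 18 of 20 with NTHi, where 2 rose (median -0.40), and 15 of 20 without, where 1 rose (median -0.47). Hspa5, the main chaperone of that compartment, was at 974 to 1401 CPM (median 1307) at airlift and 649 to 689.7 (median 670.2) with NTHi. It fell by 0.85 ± 0.08 with NTHi and 0.90 ± 0.09 without, and the size with NTHi differed between experiments (-0.97, -1.06 and -0.52 in A, B and C). Trib3, a target of the integrated stress response, fell by 1.12 ± 0.06 and 1.34 ± 0.09, the cochaperone Dnajb9 by 0.87 ± 0.09 and 0.60 ± 0.13, and the factor Atf3 by 0.74 ± 0.08 and 0.69 ± 0.10. The 2 that rose were the chaperones Calr (0.34 ± 0.05) and Pdia4 (0.22 ± 0.05, not called without experiment C).

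Matrix and adhesion genes rose in both. Of 22 integrins, laminins and collagens 19 rose and 2 fell with NTHi (median 0.60), and 18 rose and none fell without (median 0.60). Lamb1, a laminin chain, was at 8.96 to 17.9 CPM (median 11) at airlift, 47.6 to 83.0 (median 61.3) untreated and 56.1 to 111 (median 72.9) with NTHi. It rose by 2.55 ± 0.14 with NTHi and 2.29 ± 0.16 without, and each day 4 library exceeded each airlift library. The collagen receptor Itga2 rose with NTHi by 1.2 ± 0.07 and was at -0.09 ± 0.07 without it, not called. The 2 that fell were the basement membrane collagens Col4a1 (-0.14 ± 0.05) and Col4a2 (-0.20 ± 0.05), which rose without NTHi by 0.68 ± 0.06 and 0.66 ± 0.08. The falls of Col4a1 and Col4a2 were not called without experiment A or with counts summed per experiment, and that of Col4a1 not without experiment B, without a filter, without an experiment term or in a fit of 20 libraries. Genes of mesenchymal cells, which sorting should have removed, rose along with these: 9 of 12 with NTHi (median 1.73) and 12 of 13 without (median 2.04), none lower. Their summed level was 162 to 270.0 CPM at airlift, 384 to 636 with NTHi and 464 to 682 without. Col1a1 rose by 2.75 ± 0.16 and 2.68 ± 0.18, Col1a2 by 3.03 ± 0.17 and 3.21 ± 0.15, Pdgfrb by 3.29 ± 0.21 and 1.45 ± 0.20 and Dcn by 3.17 ± 0.23 and 1.94 ± 0.15, with NTHi and without in that order. The part of mesenchymal cells in the matrix result was not tested.

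Antimicrobial genes and chemokines had the highest medians of the 34 lists with NTHi. Of 22 antimicrobial and acute-phase genes tested 19 rose and 1 fell (median 2.71), and 11 of 21 rose and 5 fell without NTHi (median 0.60). Lcn2, which withholds iron from bacteria, was at 38.4 to 80.9 CPM (median 43.1) at airlift, 91.7 to 202 (median 174) untreated and 7580 to 10029 (median 9203) with NTHi. The groups were separate, and Lcn2 rose by 7.40 ± 0.18 with NTHi (adjusted p = 8.1e-14) and by 1.45 ± 0.13 without. Saa3, an acute-phase apolipoprotein, went from 0.893 to 1.93 CPM (median 1.46) to 361 to 525 (median 416), a log2 change of 8.07 ± 0.13 against 1.56 ± 0.34 without NTHi. The complement component C3 rose by 2.68 ± 0.06 and the ferroxidase Cp by 2.44 ± 0.05, and without NTHi these were at 0.23 ± 0.05 and -0.02 ± 0.05, the latter not called. The lysozyme Lyz1 was the member that fell, by 3.28 ± 0.12 with NTHi and 2.49 ± 0.17 without.

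Of 28 chemokines and cytokines tested, 25 rose and 3 fell with NTHi (median 2.50), and 16 rose and 4 fell without (median 0.69). Cxcl5, which draws neutrophils, was at 20 to 27.9 CPM (median 22.8) at airlift, 21.1 to 37.5 (median 26.2) untreated and 1004 to 1193 (median 1043) with NTHi. Airlift and untreated libraries overlapped and the NTHi libraries stood far above both, with log2 changes of 5.51 ± 0.08 (adjusted p = 3.4e-16) and 0.16 ± 0.09, the latter not called. Cxcl1 and Cxcl2, of the same receptor group, rose by 5.42 ± 0.17 and 5.17 ± 0.13 with NTHi, against 0.55 ± 0.25 (not called) and 1.39 ± 0.18 without. The growth factors Csf1 and Csf2 rose by 3.64 ± 0.07 and 5.27 ± 0.11 with NTHi and by 0.92 ± 0.08 and 2.25 ± 0.12 without. The 3 that fell with NTHi were Ccl5 (-2.23 ± 0.25, and -2.01 ± 0.18 without), Il18 (-1.17 ± 0.13, and 1.32 ± 0.15 without) and Ccl17 (-0.76 ± 0.22, not called without experiment A).

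Of 25 NF-kB components and feedback genes 17 rose and 5 fell with NTHi (median 0.63), whereas 7 rose and 14 fell without (median -0.16). The 5 that fell with NTHi were Rel, Traf1, Rela, Birc2 and Cyld. Rel changed by -1.02, -0.98 and -0.7 in experiments A, B and C on the log2(CPM + 0.5) scale, and Traf1 by -0.56, -0.38 and -1.11. For both, each NTHi library lay below each airlift library. With NTHi 3 fell, not 5, without the second NTHi library of experiment B, without experiment A or B, with no filter and with summed counts. Zc3h12a, a ribonuclease that removes cytokine transcripts, was at 23.2 to 31.9 CPM (median 26.2) at airlift, 22.8 to 31.9 (median 26.9) untreated and 212 to 242 (median 229) with NTHi. It rose by 3.09 ± 0.06 with NTHi and was at 0.05 ± 0.06 without, not called. Tnfaip2 rose by 3.26 ± 0.09 (0.52 ± 0.13 without), the adhesion molecule Icam1 by 1.51 ± 0.04 (0.83 ± 0.05) and the apoptosis inhibitor Birc3 by 1.24 ± 0.04 (-0.21 ± 0.05). The consensus site of NF-kB occurred, on either strand, in 12 of 25 promoter windows of this list (21 genes), in 7 of 22 windows of the chemokine list (19 genes) and in 4.51% of all windows. Csf1 (chr3:107760420-107760719, minus strand) is shown as the chemokine list member with the smallest p among the 7, with the site in capitals.
Csf1: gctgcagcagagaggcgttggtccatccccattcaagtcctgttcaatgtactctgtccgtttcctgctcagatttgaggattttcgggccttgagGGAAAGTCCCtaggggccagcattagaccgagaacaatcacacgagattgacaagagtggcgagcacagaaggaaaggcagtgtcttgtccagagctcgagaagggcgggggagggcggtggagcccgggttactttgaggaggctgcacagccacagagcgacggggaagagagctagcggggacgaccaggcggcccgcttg

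Interferon response genes, most of which fell without NTHi, mostly fell less or rose with it. Of 26, 17 fell and 5 rose with NTHi (median -0.37), 25 fell and none rose without (median -0.97), and 19 were higher and 1 lower with NTHi in the direct comparison. Rtp4, a chaperone-like interferon target, was at 42.0 to 47.0 CPM (median 43.3) at airlift, 8.59 to 12.9 (median 10.5) untreated and 25.6 to 29.6 (median 27.3) with NTHi. The 3 groups were separate, with log2 changes of -0.69 ± 0.05 and -2.02 ± 0.08. Xaf1 fell by 0.99 ± 0.08 (-2.02 ± 0.11 without NTHi) and Oasl1 by 1.26 ± 0.08 (-1.68 ± 0.10). The 5 that rose were the guanylate-binding proteins Gbp2 (0.60 ± 0.08) and Gbp3 (0.76 ± 0.12), the nucleic acid sensor Zbp1 (0.61 ± 0.09), the chemokine Cxcl10 (0.46 ± 0.09) and the transcription factor Irf1 (0.27 ± 0.07). Each of these fell without NTHi, by 0.37 to 1.35 in size. The interferon-stimulated element TTTCNNTTTC occurred, on either strand, in 11 of 22 promoter windows of the list (19 genes) and in 3.44% of all windows. Gbp2 (chr3:142620413-142620712, plus strand), shown as the member with the smallest p among these, has it in capitals.
Gbp2: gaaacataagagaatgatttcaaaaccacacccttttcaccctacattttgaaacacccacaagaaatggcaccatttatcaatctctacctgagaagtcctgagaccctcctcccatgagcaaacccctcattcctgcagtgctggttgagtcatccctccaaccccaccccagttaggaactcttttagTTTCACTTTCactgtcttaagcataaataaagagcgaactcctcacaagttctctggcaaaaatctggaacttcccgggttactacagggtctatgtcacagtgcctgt

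The same motif search was run for 6 further patterns, and the windows were not matched for base composition, so a match is a description of letters only. TTTGAA was in 11 of 22 windows of proliferation genes and 17.9% of all. The patterns TTTCCCGC, TTTCGCGC, TTTGCCGC and TTTGGCGC, read as one E2F element, were in 4 of 22 and 2.26%. CCACG was in 15 of 19 windows of the endoplasmic reticulum stress list and 32.8% of all, TCACNCCA in 3 of 25 of the sterol list and 4.36%, and TGACNNNGC or TGAGNNNGC in 8 of 22 of the antioxidant list and 27.8%. The X-box of RFX factors was in 1 of 19 windows of the multiciliated programme and 1.16% of all.

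Antigen presentation followed 2 courses. Of 16 MHC class I genes 6 rose and 3 fell with NTHi (median 0.00), none rose and 13 fell without (median -0.41), and 15 were higher with NTHi than without at day 4. The peptide-loading genes Tapbp, Tapbpl and Tap2 rose by 0.38 ± 0.05, 0.29 ± 0.04 and 0.24 ± 0.06 with NTHi and fell by 0.19 ± 0.04, 0.41 ± 0.04 and 0.30 ± 0.04 without, and H2-T23 fell by 0.38 ± 0.09 and 0.68 ± 0.07. With scaling by library totals alone, 3 rose. Of 10 class II genes 6 fell and 2 rose with NTHi (median -0.31), and 3 fell and 4 rose without (median 0.13). At day 4, 7 of the 10 were lower and 1 was higher with NTHi than without. H2-Aa fell by 0.55 ± 0.05 and H2-DMa by 0.71 ± 0.09, while the invariant chain Cd74 and the regulator Ciita rose by 0.45 ± 0.05 and 0.77 ± 0.12.

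Genes of other cell types moved with NTHi too. The list of macrophages and monocytes (18 genes) had 13 that fell and 2 that rose (median -1.35), against 10 and 6 without NTHi (median -0.59), and their summed level was 1701 to 1953 CPM at airlift, 1631 to 3482 with NTHi and 2302 to 4478 without. The complement genes C1qa, C1qb and C1qc fell by 4.86 ± 0.16, 4.40 ± 0.16 and 5.87 ± 0.15 with NTHi and by 0.98 ± 0.16, 1.04 ± 0.12 and 1.18 ± 0.13 without. C1qc went from 16.1 to 20.3 CPM (median 19.1) to 0.153 to 0.472 (median 0.326), far below airlift. The 2 that rose were Cd14, a receptor for bacterial lipopolysaccharide that epithelium can also express, by 3.14 ± 0.08 (0.12 ± 0.06 without, not called), and Adgre1, the macrophage antigen F4/80, by 1.63 ± 0.21 (0.42 ± 0.13). In the third NTHi library of experiment C, Adgre1 was at 34.9 CPM with 84.7 to 127 in the other 6, and Cd68 at 114 with 225 to 464. Without this library 14 macrophage genes fell and 3 rose.

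Of 6 neutrophil genes tested 4 rose and 1 fell with NTHi (median 1.76), and 2 rose and 2 fell without it (median 0.24). Mpo, Elane, Camp, Ngp, Retnlg and Ly6g were too low to test, at no more than 0.223 CPM at airlift and 0.429 with NTHi. Mpo and Elane, genes of neutrophil precursors, had no count in any NTHi library and at most 0.0527 CPM at airlift. The summed level of the 12 listed neutrophil genes was 198 to 300.5 CPM at airlift, 1464 to 2097 with NTHi and 358 to 739 without. Of these genes, S100a8, S100a9, Ltf and Camp are also on the antimicrobial list. Those that rose, among them Ltf (2.74 ± 0.09), Mmp8 (4.18 ± 0.26) and S100a8 (3.01 ± 0.26), include genes that epithelium makes in inflammation. Cxcr2, the receptor for Cxcl1 and Cxcl5, was at 0.742 to 1.55 CPM (median 1.52) at airlift and had no count in the 7 NTHi libraries. Against the limit of 3 counts over those libraries it was at least 123-fold lower, or at least 61.5-fold lower against 6 counts, if both mates of a read pair were counted. These bounds cover counting error only. Lymphocyte genes fell in 7 of 12 and rose in none (median -0.67), with a summed level of 103 to 525 CPM with NTHi and 255 to 340.4 at airlift, and endothelial genes fell in 7 of 10 and rose in none (median -1.28), from 45.8 to 65.0 CPM summed to 13.7 to 24.3. Without the third NTHi library of experiment C, 1 lymphocyte gene rose. The part of these cells in the other results was not tested.

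The rule for the largest changes named 8 genes in each direction, among those whose average log2 CPM was 2 or more. Besides Lcn2, Saa3 and Slc26a4, the highest were Cstdc4 (10.26 ± 0.52), Cd177 (8.06 ± 0.17), Olfm4 (7.54 ± 0.15), the glutamate transporter Slc1a2 (7.44 ± 0.37) and Cbln1 (7.29 ± 0.43). Cd177 and Olfm4, better known from neutrophils and from crypts of the gut, were at 66.2 to 189 and 159.8 to 275 CPM with NTHi and rose without it as well, by 4.30 ± 0.24 and 4.20 ± 0.19. Cstdc4 and Slc1a2 were low in the third NTHi library of experiment C, at 16.2 and 18 CPM against at least 43.3 and 44.6 in the others. The lowest were Apol7c (-6.21 ± 0.33), the peptide hormone gene Edn2 (-6.19 ± 0.44), C1qc, Phgr1 (-5.06 ± 0.13), the phospholipase D family member Pld4 (-4.95 ± 0.18), the ribonuclease Ear2 (-4.93 ± 0.21), C1qa and Krt4. All of these also fell without NTHi, by 0.67 (Pld4) to 3.60 (Edn2). Edn2 at airlift ran from 2.72 to 38.4 CPM and was highest in experiment C, where its change was -5.82 on the log2(CPM + 0.5) scale against -2.50 and -2.84 in A and B.

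Ranked by the smaller of the changes with and without NTHi, the genes that rose most in both were Mcidas, the regulators of G-protein signalling Rgs4 (5.88 ± 0.22 with NTHi, 5.55 ± 0.24 without) and Rgs5 (4.39 ± 0.35 and 6.42 ± 0.31), the protocadherin Pcdh8 (6.76 ± 0.27 and 4.45 ± 0.35) and Cd177. Rgs4 reached 51.2 to 84.9 CPM with NTHi from 0.736 to 2.47 at airlift. Those that fell most in both were Tmt1b (-4.76 ± 0.16 and -5.91 ± 0.14), Stab2 (-3.97 ± 0.12 and -5.03 ± 0.23), the intestinal mucin Muc2 (-3.67 ± 0.18 and -4.46 ± 0.12), Edn2 and Phgr1. Muc2 was at 15.4 to 25.0 CPM (median 21.7) at airlift and 0.719 to 2.41 (median 1.78) with NTHi, with no overlap.

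Among genes that rose without NTHi, those with the largest difference towards lower levels with NTHi were Ahsp, Scgb3a2, Cxcr1, Rufy4 and Kynu. Ahsp, the chaperone of alpha haemoglobin, was at 0.699 to 1.49 CPM (median 1.01) at airlift, 2.44 to 8.52 (median 7.35) untreated and 0 to 0.319 (median 0.102) with NTHi, a log2 change of -3.22 ± 0.34 against 2.74 ± 0.23. Kynu, an enzyme of tryptophan breakdown, changed by -2.13 ± 0.18 against 1.91 ± 0.17, and Rufy4 by -2.98 ± 0.16 against 1.29 ± 0.17. Cxcr1, a chemokine receptor, rose by 3.75 ± 0.19 without NTHi and was at -1.01 ± 0.37 with it, where its libraries overlapped those of airlift. That last call for Cxcr1 was lost when experiment A, experiment B or any of 5 single libraries was left out, or with no experiment term, with values of -0.97 to -0.72.

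Among genes that fell without NTHi, those with large differences towards higher levels included Mab21l3, Pglyrp1, Exoc3l4 and Upp1. Pglyrp1, which binds bacterial peptidoglycan, was at 29.1 to 42.7 CPM (median 34.8) at airlift, 10.1 to 17.2 (median 14.6) untreated and 76.1 to 97.8 (median 93.7) with NTHi. Its groups were separate, and it rose by 1.30 ± 0.07 with NTHi and fell by 1.39 ± 0.09 without. Mab21l3 rose by 3.11 ± 0.08 and fell by 1.54 ± 0.11, Exoc3l4 rose by 1.35 ± 0.08 and fell by 1.09 ± 0.09, and the uridine phosphorylase Upp1 rose by 0.59 ± 0.16 (not called without experiment B) and fell by 1.79 ± 0.09.

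The remaining lists had medians from -0.27 to 0.00 with NTHi. Of 27 nuclear subunits of the respiratory chain 2 rose and 9 fell with NTHi (median -0.08), and of 13 mitochondrially encoded genes 1 rose and 2 fell (median 0.00), with 0 to 4 rising under the alternative settings. The mitochondrially encoded genes that fell were 5 without the first NTHi library of experiment A or with library totals alone and 4 without experiment A, and 4 rose without the second airlift library of experiment B. Immediate-early genes gave 5 rises and 8 falls of 15 (median -0.27), and the same counts without NTHi (median -0.21).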

How the data were processed

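RNA sequencing gave 1 table of read counts per gene for each of experiments A, B and C. The authors deposited raw counts per gene. STAR, DESeq2 and the build GRCm39 are named, without versions or roles, per the submitters' processing notes, while neither the counting program nor its strand setting is stated there or in the labels. Overlapping genes on opposite strands may therefore share reads. Of counts below 20 in the 13 libraries compared, 70.5% to 74.9% were even, as when both mates of a pair are counted, and the alternative with counts divided by 2 addresses this. Each table has 41098 lines, of which 25 are broken and were left out. They belong to 6 genes and held at most 0.082% of a library's counts. The 13 libraries held 32323375 to 38612050 counts.

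Genes with low counts were removed with filterByExpr (minimum count 10), and libraries were scaled by TMM. Counts were tested with edgeR 4.0.16 (quasi-likelihood test, experiment as a term) in R 4.3.3, each comparison on the libraries of its 2 groups, and p-values were adjusted by Benjamini-Hochberg at 0.05. Standard errors are the log2 change divided by the square root of the F statistic. Differences between experiments were tested as an interaction. The procedure was run on simulated counts of independent libraries without effects of experiment. That setting is simpler than these data, so the run does not bear on differences between experiments or on technical replicates. The labels do not say whether libraries with a shared replicate number belong together, and the main fit did not pair them. Within experiments the correlation of their deviations lay between -0.036 and 0.025. In experiments A and B replicates 1 and 2 must give the same value, because each group has 2 libraries. The correlations are therefore too few to decide whether replicates pair. Alternatives used DESeq2 1.42.0, limma 3.58.1, other scalings, no filter, no experiment term, a fold threshold, counts summed per experiment, all 20 airlift and day 4 libraries in one fit, a replicate block, and each library or experiment left out.

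The genes named are 20 chosen genes, the 8 highest and 8 lowest changes among genes whose average log2 CPM was 2 or more, up to 4 members of each list with the smallest p, members called against the direction of their list, and 5 genes in each of 4 classes set by the change without NTHi, of which 1 is not reported here. Others are named where a result turns on them, after their values were seen. The 34 lists and the genes were chosen with earlier results of these data known. Promoter windows are from RefSeq (GRCm38.p6) and were matched by symbol.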

Additional observations from a re-analysis of the deposited data

Results flagged for a closer look

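In 22 of 349 groups of libraries examined, 1 library stood apart from the rest of its group by Dixon's test, and chance alone flags about 1 in 20 groups. The third NTHi library of experiment C accounted for 9 of these groups. It was low for Cstdc4 (16.2 CPM, others 43.3 to 71.4), Slc1a2 (18, others 44.6 to 75.9), C1qa (0.204, others 0.478 to 0.735), Srxn1 (65.8, others 94.3 to 120.1), Mmp8 (41.8, others 108 to 168), S100a8 (5.65, others 12.8 to 19.7) and Adgre1 (34.9, others 84.7 to 127). It was high for Csf2 (110.4, others 73.3 to 85.2) and Ltf (2049, others 1318 to 1585). The first NTHi library of that experiment was low for Epcam (467, others 522 to 566).

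Among airlift libraries, the second of experiment B was low for Pgk1 (1817, others 1939 to 2014), Ndrg1 (408, others 457 to 487), Cldn4 (1285, others 1564 to 1598) and H2-T23 (132, others 146 to 153), and high for Slc12a2 (113, others 88.4 to 95.2) and Csf2 (2.77, others 1.74 to 2.07). The first of experiment B was low for Itgb6 (151, others 167 to 174). The first of experiment C was high for Mcidas (0.817, others 0 to 0.132), Ccno (2.82, others 0.949 to 1.45) and Rgs4 (2.47, others 0.736 to 1.0) and low for Cxcr2 (0.742, others 1.42 to 1.55). The second of experiment C was low for Etv5 (19.0, others 21.7 to 23.3).

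The change from airlift to day 4 with NTHi differed between experiments A, B and C for some of the genes described. The adjusted p-values are from edgeR's interaction test. These were 1.7e-04 for Krt15, 2.2e-04 for Adm, 7.9e-04 for Krt5, 0.001 for Krt17, 0.0074 for Hspa5, 0.0095 for Cbr2 and 0.014 for Lcn2. They were 0.03 for Jag1 and Hopx, 0.031 for Col17a1, Pfkfb3 and Sprr2f, 0.033 for Irf1, 0.037 for Edn2, 0.049 for Ehf and Ciita, and 0.05 for Sftpc. Lcn2 rose by 7.72, 7.79 and 6.85 on the log2(CPM + 0.5) scale in A, B and C, and Sftpc changed by -0.20, -0.67 and -0.30.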

How the results depend on the processing

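Of 175 genes examined under 26 alternatives for NTHi against airlift, 162 kept direction and side of the threshold in all, and 1 value reversed. For untreated against airlift 143 of 173 genes did so under 22 alternatives, and 21 values reversed. The comparison of NTHi with untreated was less stable, with 135 of 174 genes kept under 23 alternatives and 60 values reversed. With the replicate block the counts of called genes were 4694 higher and 4912 lower for NTHi against airlift, 4527 and 4241 for untreated against airlift, 2980 and 3002 for NTHi against untreated, and 977 for the difference between experiments. Whether replicate numbers pair the libraries is not known here. A log2 change of at least 1 left 1238 and 1424, 1079 and 974, and 535 and 700 genes in the first 3 comparisons. The difference between experiments was 962 genes by DESeq2's likelihood ratio test and 87 to 1040 when single libraries were left out (121 and 129 without airlift 1 or 2 of A, 127 without airlift 2 of B, 107 and 114 without NTHi 1 or 2 of B, 544 and 152 without NTHi 1 or 2 of C, 1040 without NTHi 3 of C). In the same runs, with whole experiments left out too, NTHi against airlift gave 4383 to 5173 higher and 4384 to 5156 lower.

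Some changes reversed, and the cause was not tested. Leaving out libraries or experiments gave a range with NTHi of -0.23 to 0.85 for Krt15. Without NTHi they were -0.19 to 0.03 for Dnah11, -0.06 to 0.27 for Creb3l1, -0.11 to 0.08 for Muc20, -0.07 to 0.05 for Cp, -0.01 to 0.13 for Zc3h12a and -0.33 to 0.08 for Hydin. Muc20 turned positive, at 0.00 to 0.04, without single libraries and at 0.08 and 0.02 without experiment A or C. With no experiment term Muc20 and Cp were at 0.03. Between the day 4 groups they were -0.04 to 0.05 for Foxj1, -0.15 to 0.46 for Mcidas, -0.29 to 0.11 for Ccno, -0.04 to 0.67 for Muc5b, -0.11 to 0.58 for Deup1, -0.15 to 0.44 for Foxn4, -0.06 to 0.06 for Cfap126, -0.05 to 0.00 for Ocln, -0.04 to 0.01 for Rrm1, -0.06 to 0.09 for Cenpf, -0.07 to 0.12 for Insig1, -0.02 to 0.11 for Hspa5, -0.13 to 0.03 for Atf3 and -0.06 to 0.18 for Col1a1. Foxj1 was at 0.02 without experiment C and Atf3 at -0.12 without experiment A. With library totals alone that difference was -0.05 for Foxj1, 0.00 for Foxn4, -0.06 for Cfap126, -0.04 for Cenpf, -0.03 for Insig1 and -0.01 for Hspa5. With no experiment term it was 0.00 for Mcidas, -0.11 for Foxn4 and 0.00 for Cfap126, and Cfap126 was also at 0.00 with DESeq2 size factors, DESeq2's Wald test, no filter and the replicate block.

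Genes under about 1 CPM, such as Mcidas at airlift, rest on few reads. The day 4 libraries and the airlift libraries differ in time as well as in NTHi.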
